A study of Schmidtea mediterranea with 15 samples.

Results

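A group of 281 transcripts of the planarian flatworm Schmidtea mediterranea, moderately abundant in day 0 trunk fragments and scarce in whole juveniles, is described here across 15 poly(A) RNA libraries. They were 281 of the 92053 sequence records counted, and were chosen among the 91522 records whose identifiers start with GDAG, those of 1 transcriptome assembly. They were chosen by their measured levels, in CPM (counts per 1e6 counts of the library). A member had a mean of at least 20 and under 50 CPM over the 3 day 0 libraries and a juvenile mean at least 8 times lower. It also had at least 3 times as many CPM in day 7 replicate 3 as in day 7 replicate 2, and at least 2 times as many in day 3 replicate 3 as in the mean of day 3 replicates 1 and 2.

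The libraries fall into 5 groups of 3, all labelled as the sexual S2F2 biotype: day 0 trunk fragments, trunk fragments after 3, 5 and 7 days of regeneration, and whole juvenile animals. The labels give no age, no pooling scheme, no batch and no date. They do not call the day 0 fragments adult. Whether replicates came from separate animals is not stated, and p-values then measure only how far these libraries differ, which may be technical. Juveniles differed from day 0 in body part and may also have differed in stage, and these cannot be told apart here. The identifiers come without gene names, so the marker lists of planarian cell types could not be matched, the tissue could not be checked against its markers, and no function is given for any member.

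As background, planarians rebuild missing parts from a population of adult stem cells, the neoblasts, while the old tissue of the fragment is remodelled to a smaller scale. Animals of the sexual biotype are cross-fertilising hermaphrodites: mature ones carry testes, ovaries, yolk glands and copulatory organs, which juveniles have not yet formed, and the reproductive system regresses in amputated or starved animals. None of these organs can be assigned to the members from these files.

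All 281 members were highest in day 0 replicate 3 among the day 0 libraries, where the rule used only the day 0 mean. This was not free of the choice, since members were chosen high in replicate 3 of days 3 and 7. Over all records tested, deviations of replicate 3 from the group mean correlated between day 0 and day 3 (0.515) and day 7 (0.475). The median member had 17.8 CPM in day 0 replicate 1, 17.7 CPM in replicate 2 and 50.8 CPM in replicate 3. The lowest member of replicate 3, at 35.0 CPM, lay above the highest of replicates 1 and 2, at 31.3 and 32.2 CPM. Day 0 replicates 2 and 3 had nearly the same depth, with total counts of 34526592 and 34569921, and replicate 1 had 20338464.

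At day 3 the median member had 5.25 CPM in replicate 1, 6.16 CPM in replicate 2 and 22.0 CPM in replicate 3, the last being a contrast the rule fixed. At day 5, which the rule did not use, the medians were 7.62, 12.6 and 15.5 CPM in replicates 1, 2 and 3. At day 7 they were 2.18 CPM in replicate 1, 0.545 CPM in replicate 2 and 5.72 CPM in replicate 3. Juvenile replicates 1, 2 and 3 had medians of 0.622, 0.45 and 0.758 CPM. The trunk groups overlapped on this scale: day 3 replicate 3 stood above day 0 replicates 1 and 2, and day 7 replicate 2 stood at the level of the juveniles.

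**Figure D1:**
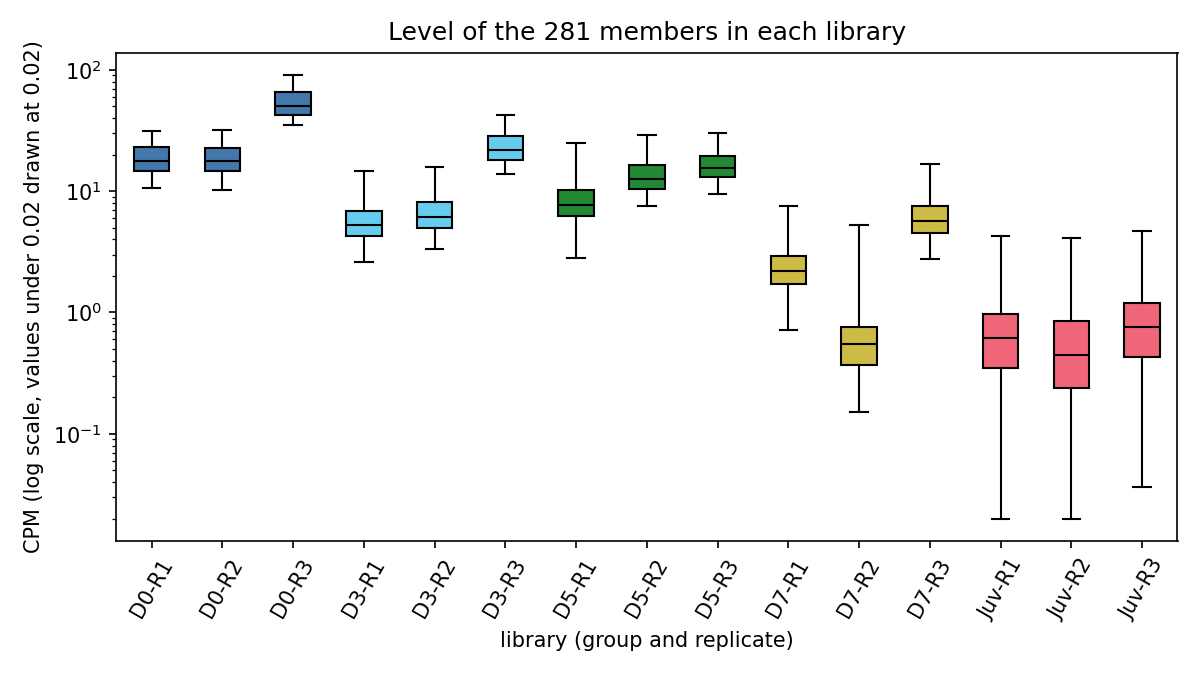
Level of the 281 members in each of the 15 libraries, in CPM on a log scale; boxes show the quartiles and median over members and whiskers the lowest and highest member, with values under 0.02 CPM drawn at 0.02. Replicate 3 is the highest library of each trunk group, with medians of 50.8, 22.0, 15.5 and 5.72 CPM at days 0, 3, 5 and 7.

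The steps of the rule show how the group is bounded. Of 3716 GDAG records with a day 0 mean of 20 to 50 CPM, 346 had a juvenile mean at least 8 times lower and are called juvenile-low here. The day 7 condition kept 281 of these, the day 3 condition alone kept 288, and every record that met the day 7 condition also met that of day 3. Of the 65 juvenile-low records left out, 58 failed both conditions and 7 failed that of day 7 alone. Among the 3370 records of the same day 0 level that were not juvenile-low, 9 met both replicate conditions (0.267%), against 281 of 346 (81.2%) of the juvenile-low ones. These counts describe the values that chose the members and are not tested.

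The day 3 bound fell in a sparse stretch and the day 7 bound in a populated one. For day 7, the ratios nearest to the bound of 3 were 3.10 and 3.18 inside and 2.87 and 2.85 outside. For day 3, the values nearest to the bound of 2 were 2.27 and 2.68 inside and 1.90 and 1.80 outside. The day 0 bounds cut through a continuous range: 19.9 and 20.1 CPM stood on the sides of the lower bound, and 49.6 and 50.2 CPM on those of the upper. They also rested on day 0 replicate 3: with the day 0 mean taken over replicates 1 and 2, 153 records met the rule, 100 of them members. At the juvenile bound the day 0 mean was 8.08 times the juvenile mean inside and 7.92 times outside.

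**Figure D2:**
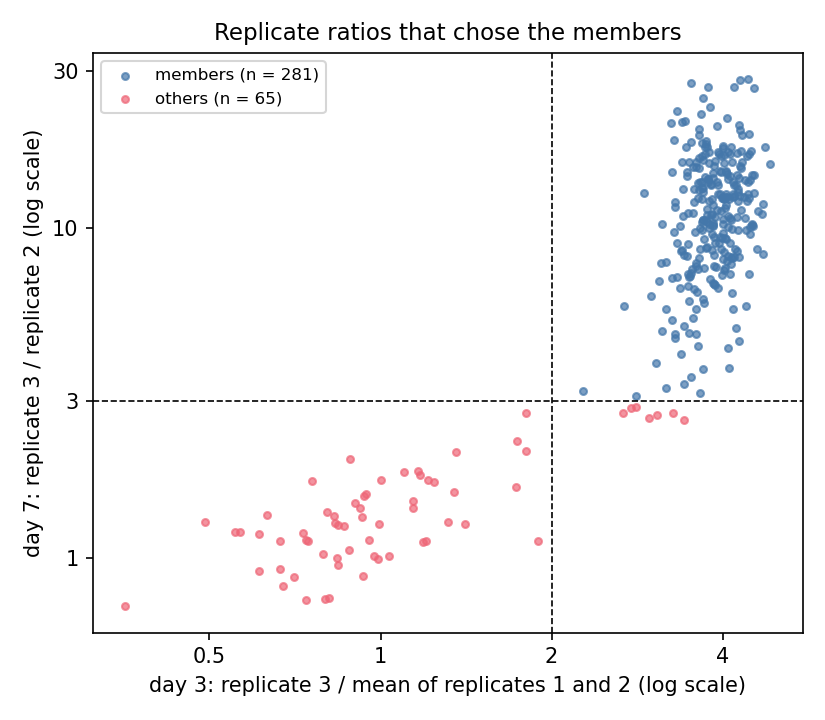
The replicate ratios used by the rule for the 346 juvenile-low records, on log axes: day 3 replicate 3 over the mean of replicates 1 and 2 (x) and day 7 replicate 3 over replicate 2 (y), with dashed lines at 2 and 3. The 281 members have medians of 3.85 (2.27 to 4.85) on x and 11.3 (3.10 to 28.3) on y. Of the 65 others, 58 lie below both lines.

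The pattern was not limited to the level that the rule took. Among juvenile-low GDAG records with a day 0 mean of 5 to 10 CPM, 437 of 503 (86.9%) met both replicate conditions, and at 10 to 20 CPM 392 of 448 (87.5%). At 50 to 100 CPM it was 66 of 109 (60.6%), and at 100 CPM or above 38 of 100 (38.0%). The most abundant juvenile-low transcripts thus met the conditions at a lower rate than the scarcer ones. Records of low level have more counting error in their ratios.

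The replicate conditions left the differences between the day 0 libraries and all values at day 5 unused. These were still not free of the choice of members high in replicate 3 at days 3 and 7. Over all records tested, deviations of replicate 3 at day 5 correlated with those at days 0, 3 and 7 (0.179, 0.226 and 0.229). The 65 others all failed the day 7 condition, so their contrast with the members partly follows from the choice. In day 0, the ratio of replicate 3 to the mean of replicates 1 and 2 had a median of 2.89 over members and ranged from 2.16 to 3.49. The 65 other juvenile-low records of the same level had a median of 0.982 and a range of 0.383 to 3.62. Day 0 replicate 3 was the highest library for 281 of 281 members and for 17 of the 65 others, against 34.4% of all 46736 records tested. Over the 3716 GDAG records of 20 to 50 CPM at day 0 that share was 41.9%. A ratio of at least 2 was found in all 281 members, in 8 of 65 others and in 9.37% of all records tested.

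The members kept this ratio with little variation among themselves. On the log2 scale, the ratio of day 0 replicate 3 to replicate 1 had a standard deviation of 0.123 over members, where counting error alone gives 0.0834. For the 65 others the standard deviation was 0.723, beside a counting error of 0.0764. Day 0 replicates 1 and 2 were alike for the members, with a median ratio of replicate 2 to replicate 1 of 0.993 (0.711 to 1.28).

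At day 5 the order of the libraries was also shared, and this too was not free of the choice. Day 5 replicate 1 was the lowest library for 281 of 281 members, 29 of 65 others and 46.9% of all records tested. Over the 3716 GDAG records of 20 to 50 CPM at day 0 that share was 54.9%. The full order, with replicate 1 below replicate 2 below replicate 3, held for 259 of 281 members, 27 of 65 others and 23.6% of all records tested. In the other 22 members replicate 2 was the highest. The ratio of replicate 3 to replicate 1 had a median of 2.09 (1.07 to 4.04) over members and 1.11 (0.607 to 4.82) over the others. Here members varied among themselves beyond counting error: the standard deviation of the log2 ratio was 0.357, and counting error gives 0.087. The total counts were 59034917, 36927291 and 46299068 in replicates 1, 2 and 3, so the library with the lowest values was the deepest of the 3.

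**Figure D3:**
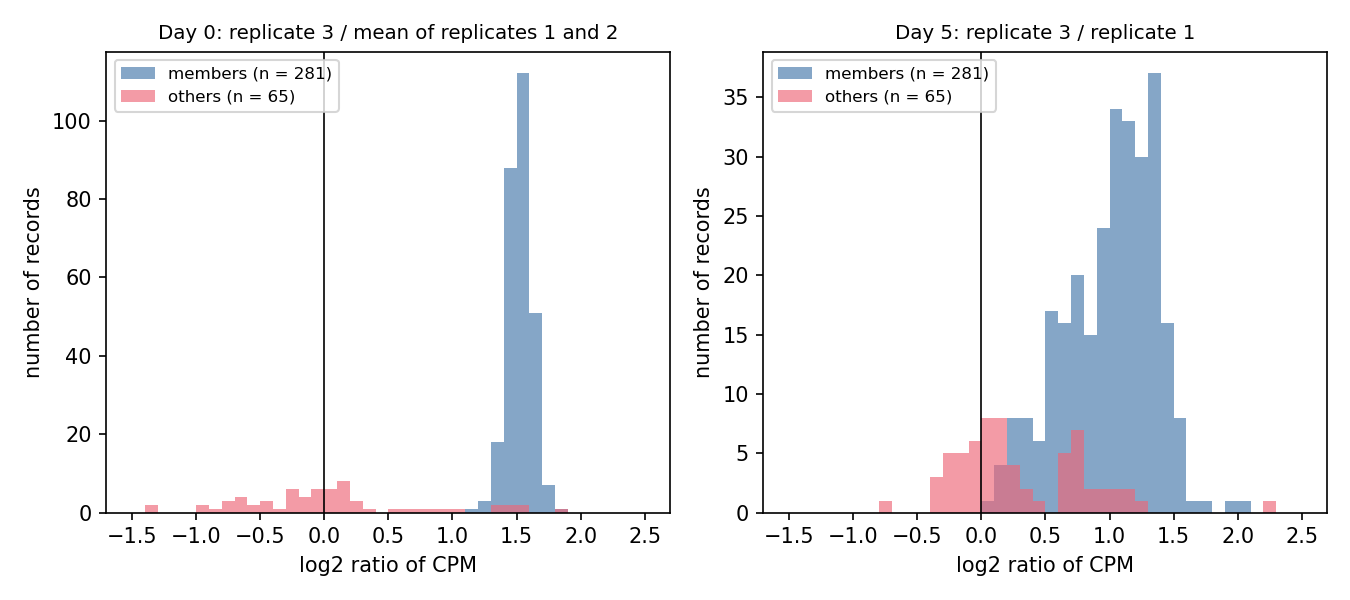
Histograms of log2 ratios between libraries that the replicate conditions did not use, for the 281 members and the 65 other juvenile-low records: day 0 replicate 3 over the mean of replicates 1 and 2 (left) and day 5 replicate 3 over replicate 1 (right). At day 0 the members stand in a narrow peak, with a median ratio of 2.89, and at day 5 in a broader one, with a median ratio of 2.09.

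Day 7 replicate 1, the day 7 library that the rule left out, lay between replicates 2 and 3 for 281 of 281 members. The rule itself opened that gap, so nothing is read from this count. Its median ratio to replicate 2 was 4.17 (1.42 to 12.2), and replicate 3 was a median of 2.65 times (1.29 to 5.26) higher than replicate 1. Juvenile libraries differed less: replicate 3 was the highest for 202 of 281 members and 30 of 65 others. The share was 51.9% over all 3716 GDAG records of 20 to 50 CPM at day 0 and 39.8% over all records tested. Over the trunk groups and juveniles, replicate 3 was thus the highest library for 281 members at days 0, 3 and 7, of which days 3 and 7 were used by the rule, and for most at day 5 and in juveniles.

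The spread within groups was measured as the coefficient of variation over 3 libraries. At day 0 its median was 67.1% over members, 20.3% over the 65 others and 7.01% over all 3716 GDAG records of 20 to 50 CPM at day 0. At day 5 these medians were 35.0%, 22.0% and 4.79%. In the juveniles, where few reads were left, the members had a median of 30.8% beside 23.4% from counting error. The members' spread at days 3 and 7, with medians of 84.6% and 95.1%, was part of their choice.

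Added up, the members took 0.533%, 0.53% and 1.54% of all counts in day 0 replicates 1, 2 and 3. They took 0.158%, 0.187% and 0.662% at day 3, 0.237%, 0.384% and 0.467% at day 5, and 0.0678%, 0.0186% and 0.176% at day 7. In juvenile replicates 1, 2 and 3 the share was 0.0217%, 0.0184% and 0.027%. The group means were 0.866% ± 0.579 at day 0, 0.336% ± 0.283 at day 3, 0.363% ± 0.116 at day 5, 0.0876% ± 0.0807 at day 7 and 0.0224% ± 0.00432 in juveniles (SD, n = 3 each). The highest library held 2.90 times the lowest at day 0, 4.18 times at day 3, 1.97 times at day 5 and 9.46 times at day 7. The factors at days 3 and 7 follow from the choice. For the 65 others, the factors at days 0 and 5 were 1.15 and 1.22. The 10 most abundant members held 5.61% of the members' CPM at day 0. The rule bounded each member's day 0 mean from below and above, which keeps this share small, so nothing is read from it. In such bulk samples fewer cells of a type and less RNA per cell cannot be told apart.

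**Figure D4:**
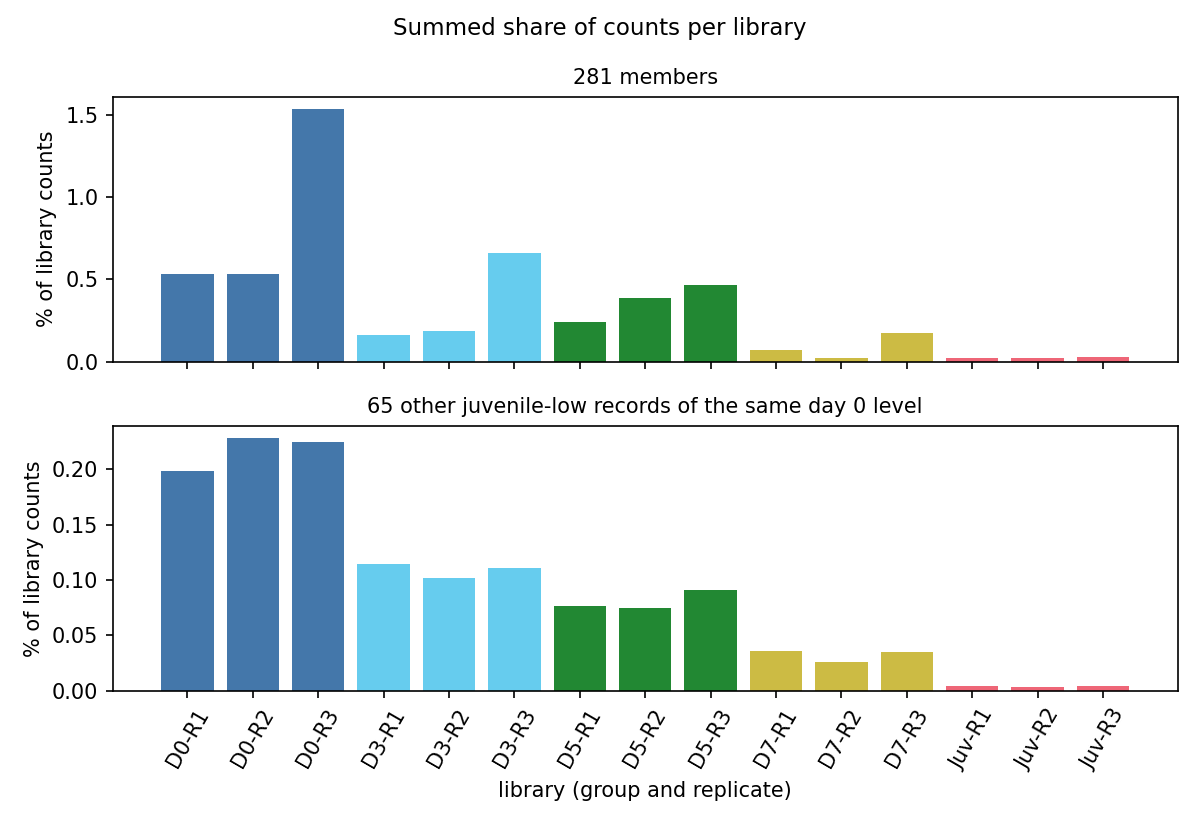
Percentage of each library's counts taken by the 281 members (top) and by the 65 other juvenile-low records of the same day 0 level (bottom), 1 bar per library and a separate scale in each panel. Within day 0 the highest library held 2.90 times the lowest for the members and 1.15 times for the others, and within day 5 it held 1.97 and 1.22 times; the wider spread of the members at days 3 and 7 was part of their choice.

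Day 3 fragments were compared with day 0 to see how far the members had moved early in regeneration. The median log2 fold change was -1.54 (-1.91 to -1.17), with a median SE of 0.797, and 0 of 281 passed the edgeR quasi-likelihood test at an adjusted p under 0.05, where 5.48% of all records tested were called lower. The edgeR test called 26 of the 65 others lower. An unadjusted p under 0.05 was found for 27 members, and DESeq2 called 8 members lower, beside 7.38% of all records tested. Day 3 replicates 1 and 2 were below all day 0 libraries for all 281 members, and day 3 replicate 3 was above day 0 replicates 1 and 2 for 272, so 4 members had every day 3 library below every day 0 library (6.26% of all records tested). The rule chose members for a high day 3 replicate 3, and nothing is read from that count. Same-numbered libraries of days 0 and 3 deviated together, and with the replicate number as a block 175 members fell, with a median log2 fold change of -1.62, where 11.6% of all records tested were called lower. The rule favours that fit, since it chose members high in day 3 replicate 3. Without day 0 replicate 3 the median log2 fold change was -0.80 and 0 were called. Without day 3 replicate 3 the count was 5, where 3736 of 49041 records tested were called lower. Without this library, day 0 replicate 3 and day 7 replicate 2 together it was 154, where 4476 of 48382 were called lower. The rule chose members high in day 3 replicate 3, so leaving it out favours a fall from day 0. Nothing is read from these counts.

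Day 5 against day 0 gave a median log2 fold change of -1.43 (-1.81 to -0.97), with a median SE of 0.796. Again 0 of 281 passed the edgeR test, where 5.64% of all records tested were called lower; an unadjusted p under 0.05 was reached by 6, and 1 was called lower by DESeq2, beside 6.6% of all records tested. The levels themselves separated for most members. Every day 5 library lay below every day 0 library for 250 of 281, against 10.3% of all records tested. For the 65 others this held for 63, and the edgeR test called 46 of them lower, so the fall was not particular to the members. The members' day 5 mean was a median of 41.6% of the day 0 mean (32.2% to 56.7%). The members were chosen for their day 0 level, which favours lower values elsewhere. Without day 0 replicate 3 the median log2 fold change was -0.70. In a fit of the day 0, day 5 and juvenile libraries alone, which leaves out the libraries chosen for their spread, 0 members were called. That fit called 1874 of 42588 records tested lower. An unadjusted p under 0.05 was reached by 260 members, with no share over all records beside it, so nothing is read from that count.

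Days 3 and 5 could not be separated for the members, whose wide spread at day 3 was part of their choice. The median log2 fold change from day 3 to day 5 was 0.11 (-0.36 to 0.79), positive for 200 members and negative for 81, with a median SE of 0.785. No member was called by edgeR or DESeq2, 0 had an unadjusted p under 0.05, and among all records tested 0.0171% were called higher and 0.00214% lower. All 3 day 5 libraries were below day 3 replicate 3 for 281 of 281 members and 32.6% of all records tested. Day 5 replicate 1, the lowest of its group, was above day 3 replicates 1 and 2 for 237 members and 29.6% of all records tested. The rule opened the gap between these day 3 libraries, so nothing is read from the place of day 5 in it. Without day 3 replicate 3 the median turned to 1.08, and without day 3 replicate 1 or 2 to -0.20 and -0.16; 0 were called in each of these fits.

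GDAG01020066.1 and GDAG01016266.1 had the smallest p in the test of day 5 against day 0. GDAG01020066.1 had 27.3, 24.5 and 55.9 CPM in day 0 replicates 1, 2 and 3, and 8.13, 9.69 and 23.9 CPM at day 3. It then had 7.91, 13.6 and 17.3 CPM at day 5, 4.69, 1.05 and 6.08 CPM at day 7, and 0.35, 0.476 and 0.795 CPM in juveniles. The day 5 libraries lay below all those of day 0 and overlapped those of day 3. Its log2 fold change from day 0 to day 5 was -1.63 (SE 0.62, edgeR adjusted p = 0.148).

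GDAG01016266.1 had a juvenile mean of 2.95 CPM, toward the upper end of the members' range, which reached 3.88 CPM. It had 22.8, 20.7 and 57.4 CPM in day 0 replicates 1, 2 and 3, 7.13, 8.60 and 27.7 CPM at day 3, and 8.05, 14.8 and 17.9 CPM at day 5. At day 7 it had 3.66, 1.94 and 6.89 CPM, beside 2.29, 3.12 and 3.43 CPM in juveniles. Day 7 replicate 2 was below all 3 juvenile libraries, and replicates 1 and 3 were above them. Its log2 fold change from day 0 to day 5 was -1.47 (SE 0.63, edgeR adjusted p = 0.201).

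GDAG01070051.1 and GDAG01000292.1 had the largest positive log2 fold changes from day 3 to day 5. GDAG01070051.1 had 17.5, 17.7 and 53.5 CPM in day 0 replicates 1, 2 and 3 and 4.35, 4.99 and 16.9 CPM at day 3. At day 5 its libraries were close together, at 14.1, 16.4 and 15.1 CPM, before 3.69, 0.501 and 10.04 CPM at day 7 and 0.427, 0.185 and 0.397 CPM in juveniles. The near equality of the day 5 libraries set it apart in value from the median member, whose day 5 replicate 3 was 2.09 times replicate 1. From day 3 to day 5 the log2 fold change was 0.79 (SE 0.84, edgeR adjusted p = 0.934).

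GDAG01000292.1 showed a like course at a lower level. It had 14.0, 14.2 and 45.6 CPM at day 0, 3.15, 4.64 and 14.0 CPM at day 3 and 10.6, 12.6 and 13.7 CPM at day 5. At day 7 it had 3.03, 0.501 and 7.71 CPM, and in juveniles 0.777, 0.529 and 0.578 CPM. Its day 5 libraries all lay below its lowest day 0 library and all within the range of day 3. The log2 fold change from day 3 to day 5 was 0.76 (SE 0.81, edgeR adjusted p = 0.935).

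**Figure D5:**
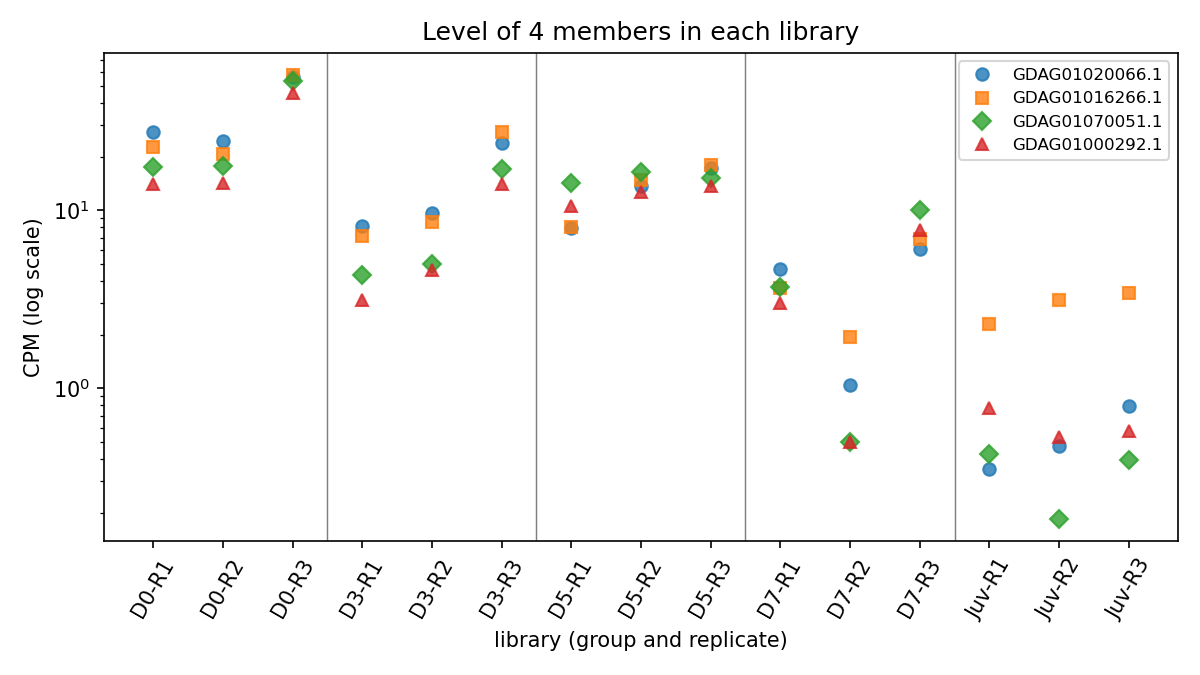
Level of the 4 named members in each library, in CPM on a log scale, with vertical lines between groups. All 4 are highest in replicate 3 at days 0, 3 and 7, while at day 5 GDAG01070051.1 lies at 14.1, 16.4 and 15.1 CPM.

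A smaller day 5 difference between replicates was seen in 41 members, whose day 5 replicate 3 was under 1.5 times replicate 1. This split was chosen after the values were seen and is not tested. Over all 3716 GDAG records of 20 to 50 CPM at day 0 this ratio had a median of 1.03, and in the 41 members it was 1.31. Their medians were 12.01, 15.1 and 15.3 CPM in day 5 replicates 1, 2 and 3, against 7.23, 12.5 and 15.6 CPM for the other 240 members, so the difference lay mainly in replicate 1. In day 0 the ratio of replicate 3 to the mean of replicates 1 and 2 had a median of 3.06 in the 41 and 2.86 in the 240. At day 7 the 41 had medians of 3.42, 0.654 and 8.58 CPM in replicates 1, 2 and 3, and the 240 had 2.07, 0.523 and 5.46 CPM. The ratio of the day 7 mean to the day 0 mean had a median of 0.133 in the 41 and 0.0898 in the 240. Over all members it ranged from 0.0535 to 0.203.

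Day 7 fragments were compared with day 0 and day 5 to follow the later course. All 281 members fell from day 0 to day 7 in the edgeR test, with a median log2 fold change of -3.54 (-4.37 to -2.45), where 16.0% of all records tested were called lower, and the highest adjusted p was 0.0492. Every day 7 library lay below every day 0 library for all 281 members (14.6% of all records tested). The same held for 65 of the 65 others, and the edgeR test called all 65 lower. The day 0 level and 2 of the day 7 libraries were used in the choice, so nothing is read from these counts. The calls of members rested on single libraries. Without day 0 replicate 3 the count was 107, and without day 7 replicate 1 it was 32. A fit of these 2 groups alone called 0. Of all records tested in these fits, 4573 of 50474, 4105 of 49162 and 2984 of 41309 were called lower.

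From day 5 to day 7 the median log2 fold change was -2.11 (-2.79 to -1.19), a median 4.31-fold lower level, with a median SE of 0.836. By edgeR 0 of 281 were called, where 0.52% of all records tested were called lower. DESeq2 called 111 lower, beside 1.95% of all records tested. An unadjusted p under 0.05 in edgeR was reached by 247 members, with no share over all records beside it, so nothing is read from that count. Every day 7 library was below every day 5 library for 277 members, against 14.3% of all records tested. For the 65 others this held for 47, and the edgeR test called 26 of them lower. The rule chose members with a wide spread at days 3 and 7, which enters this SE.

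Against juveniles, the day 5 level was higher in 276 of 281 members by the edgeR test, where 11.9% of all records tested were called higher. The median log2 fold change was 4.47, or 22.1-fold, and every day 5 library lay above every juvenile library for all 281 (13.8% of all records tested). The same held for 65 of the 65 others, and the edgeR test called 64 of them higher. The choice of members as scarce in juveniles favours this direction. The count of members called was 83 without juvenile replicate 2 and 147 without juvenile replicate 1. Of all records tested in these fits, 2817 of 49961 and 3344 of 50023 were called higher.

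At day 7, 5 of 281 members were called higher than in juveniles, with 5.21% of all records tested called higher, although the median log2 fold change was still 2.38. The median SE was 1.01, an unadjusted p under 0.05 was reached by 168 members, and 199 were called higher by DESeq2, beside 8.19% of all records tested. The rule used the juvenile level and the contrast of day 7 replicates 2 and 3, so these counts and the places of those libraries are descriptions. Day 7 replicate 3 was above all juvenile libraries for 281 members (21.9% of all records tested) and replicate 1 for 275 (18.6%). Replicate 2 was at or below the highest juvenile library for 226 members, or 80.4%, and below all of them for 91, or 32.4%. For all records tested, whose juvenile mean was a median of 126.5% of the day 0 mean, these shares were 84.0% and 45.1%. For the 65 others they were 4.62% (3 records) and 1.54% (1 record). The others had failed the day 7 condition, which favours a low replicate 2 in members. Every day 7 library was above every juvenile library for 55 members (7.73% of all records tested). For the 65 others this held for 62, and the edgeR test called 53 of them higher. The 5 members called became 31 without day 7 replicate 2, where 1991 of 49135 records tested were called higher. The count became 0 without day 7 replicate 3 or any 1 of the juvenile libraries. It was 1 to 3 without day 7 replicate 1 and without each of 7 other libraries, namely day 0 replicates 1 and 2, day 3 replicates 1 and 2 and the day 5 replicates.

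In juveniles the members were low but not silent. Their juvenile means ran from 0.012 to 3.88 CPM, with a median of 0.62 CPM; 66 members had at least 1 CPM and 8 under 0.1 CPM. The juvenile mean was a median of 2.07% of the day 0 mean, against 0.436% for the 65 others. A single member had no count in juvenile replicate 1, 6 had none in replicate 2 and 0 had none in replicate 3. Members with more CPM in juveniles also had more in day 7 replicate 2 (Spearman rho 0.806 over 281 members), with a lower rho of 0.572 for day 7 replicate 3 and 0.323 for the day 0 mean. These values compare levels between records with no correction for length, and the records of a library share its depth, so they are descriptions across transcripts and not tests.

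No member had a count row identical to that of another record. A further record within 10% or 3 counts in every library was found for 5 members, so few of the 281 are evident second copies of a transcript, but several records of 1 gene with unlike counts cannot be recognised here. Of the 531 records without GDAG identifiers, 2 had the same day 0 and juvenile levels, and both met the replicate conditions. The first matched a member within that tolerance. The second had 12.9, 13.2 and 40.2 CPM in day 0 replicates 1, 2 and 3 and 5.49, 8.83 and 12.03 CPM at day 5. Replicate 3 was its highest library in both groups.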

How the data were processed

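The members, lists and tests were chosen with earlier results of these data known. The deposited file holds raw read counts, as judged from whole numbers with unequal column totals, with 1 column per library and no normalization by the authors. Bowtie2 was the authors' aligner, per the submitters' processing notes; its version, the counting tool and the reference set were not given in the sources used here. RNA was TRIzol-extracted and the library kit was TruSeq, per the labels' protocols. Whether the libraries recorded strand was not checked here. Total counts ran from 20338464 to 59034917 per library. CPM is the count per 1e6 counts of the column total. All 281 members passed filterByExpr (minimum count 10, minimum total count 15). All 281 also passed it in the fit of days 3 and 5 alone, so day 0 counts were not needed. The 46736 records left were scaled by TMM and tested in edgeR 4.0.16 (R 4.3.3, limma 3.58.1), in 1 robust quasi-likelihood fit of 15 libraries on the 5 groups, with 10 residual degrees of freedom. P-values were Benjamini-Hochberg adjusted over all records, and 0.05 was the threshold. Counts of members at an unadjusted p under 0.05 are given without the share over all records, so nothing is read from them. SEs are the fold change over the root of the F statistic. The median log2 fold change of all records was between -0.042 and 0.041. DESeq2 1.42.0 and the alternatives given in the closing section were fitted to the same counts. Named members were the 2 with the smallest p below day 0 at day 5 and the 2 with the largest positive change from day 3 to day 5. Same-numbered libraries counted as paired where the deviations from the group means correlated above 0.1 for all 3 numbers, which held for days 0 and 3 only (0.24, 0.174 and 0.515). Intervals and ratios from counts cover counting error only.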

Additional observations from a re-analysis of the deposited data

How the results depend on the processing

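Counts of called members depended on which libraries set the spread, while the sign of the median log2 fold change against day 0 and against juveniles stayed the same in every alternative run. The replicate number as a block gave 175 called members for day 3 against day 0, in place of 0. For day 5 against day 0 it gave 27 in place of 0. It gave 239 for day 7 against day 5 and 59 for day 7 against juveniles, in place of 0 and 5. Of all 46736 records tested, the block called 5435, 3929 and 2159 lower in the first 3 comparisons and 2961 higher in the last. Only the first pair of groups met the condition for pairing. DESeq2 called 8, 1, 111 and 199 in these comparisons, beside 7.38%, 6.6%, 1.95% and 8.19% of all records tested. In 1 fit, replicate 3 of days 0 and 3 and replicate 2 of day 7 were all left out. The counts were then 154 for day 3 against day 0 and 1 for day 5 against day 3. They were 6 for day 7 against day 5 and 231 for day 7 against juveniles. Of all 48382 records tested, 4476 were called lower, 428 higher, 1261 lower and 4212 higher in these comparisons. The rule chose members high in that day 3 library and low in that day 7 library. Leaving these out favours lower day 3 and higher day 7 values, so nothing is read from these counts. Fits of only the groups compared gave 0 for day 7 against day 0 and 0 for day 7 against juveniles, and without a low-count filter the last was 1. With 1 library left out at a time, day 3 against day 0 ranged from 0 to 5, day 7 against day 0 from 32 to 281, day 5 against juveniles from 83 to 280 and day 7 against juveniles from 0 to 31, and the other comparisons stayed at 0. The number called among all records also changed between these fits. For day 7 against day 0, 4105 of 49162 were called lower without day 7 replicate 1, beside 7487 of 46736 with all libraries. RLE size factors, a 2-fold bound and members chosen on TMM-scaled CPM left each count within 1.5 times. That last choice gave 326 members, of which 260 were shared, and replicate ratios of 2 and 1.5 gave 291. A day 0 mean without replicate 3, an alternative chosen after seeing the data, gave 153, of which 100 were shared.

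From day 3 to day 5 the log2 fold change of GDAG01020066.1 (-0.11) turned to 0.0095 with the replicate block and 0.53 without the 3 libraries, and ranged from -0.37 to 0.53 with 1 library left out, turning positive without day 3 replicate 3 or day 5 replicate 1. That of GDAG01016266.1 (-0.10) turned to 0.090 and 0.78, and ranged from -0.40 to 0.77, turning positive without the same libraries. None of these passed the test. The cause of these differences was not tested. In the juveniles, where the median member had 0.62 CPM, counting error limits ratios between libraries.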
